A study of Mus musculus with 92 samples.

Results

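The 9 genes described here, Lgr5, Ascl2, Axin2, Rnf43, Znrf3, Tnfrsf19, Smoc2, Sox9 and Rgmb, are crypt genes whose expression depends on Wnt signalling or feeds back on it. They were taken by gene symbol, and each symbol matched a row in each of the 4 deposited count tables, so that 9 of 54532 annotated mouse genes were followed. Wnt proteins bind Frizzled receptors and LRP co-receptors and stop a destruction complex from degrading beta-catenin, which then enters the nucleus and activates target genes together with TCF/LEF factors. In the small intestine this signal is strongest at the crypt base, where it maintains the stem cells, and it fades toward the villus. R-spondins strengthen the signal by binding Lgr5-type receptors and removing the ubiquitin ligases that clear Frizzled from the cell surface.

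By role, Lgr5 is an R-spondin receptor and the classical marker of crypt base columnar stem cells. Rnf43 and Znrf3 are the membrane ubiquitin ligases that clear Frizzled, and Axin2 is a scaffold of the destruction complex, so that all 3 are feedback inhibitors induced by the pathway they restrain. Ascl2 is a basic helix-loop-helix transcription factor needed by intestinal stem cells, and Sox9 is an HMG-box transcription factor of the crypt base and of Paneth cells. Tnfrsf19, also called Troy, is a receptor of the tumour necrosis factor family found on Lgr5-expressing cells. Smoc2 is a secreted calcium-binding matrix protein used as a stem cell marker, and Rgmb is a membrane-anchored co-receptor for bone morphogenetic proteins.

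RNA was sequenced from mouse intestine and intestinal cultures after deletion of Eif4g2, which encodes a translation initiation factor related to eIF4G1. Organoids given A-485, which blocks the acetyltransferase activity of p300 and CBP, were sequenced as well. There were 92 libraries in 21 groups. Each mouse and culture carried a CreER recombinase that tamoxifen or 4-hydroxytamoxifen (4-OHT) activates, and every library but those given DMSO or A-485 came from animals or cultures given such a drug, controls included. Mice with Rosa26(CreER), which is expressed in most cell types of the body, were Eif4g2(flox/flox) or, as controls, Eif4g2(flox/+), and gave crypts (4 and 5 animals) and villi (5 and 5) on day 9. Mice with Vil1(CreER), whose driver is active in intestinal epithelium, were likewise Eif4g2(flox/flox) or Eif4g2(flox/+) and gave crypts (3 and 4) and villi (6 and 4) after 3 months. The flox/flox animals are called homozygous and the flox/+ animals heterozygous below, and crypts and villi largely came from the same animals. Ages of the mice were not given in the sources used here.

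All cultures carried Rosa26(CreER) and were grown in medium with EGF, Noggin and R-spondin. In the first organoid set, 3 Eif4g2(flox/flox) lines received DMSO or 0.5 µM 4-OHT for 24 hours and were collected on day 6. In the second organoid set all lines received 4-OHT, and 4 were flox/flox, 4 flox/+ and 4 Eif4g2(+/+), the last called CreER-only. Fetal intestinal spheroids received DMSO or 4-OHT, with 6 flox/flox and 5 flox/+ lines, some of which share the first part of their name (S9484 only among flox/flox, S9612 only among flox/+ lines). What that prefix stands for was not given in the sources used here. In the A-485 series, 4 organoid lines received DMSO or 3, 5 or 10 µM of the drug for 4 days. Their labels read Eif4g2(+/+) for line S6026 and Eif4g2(flox/flox) for S6070, S6074 and S6076, none given 4-OHT, and S6070 also belongs to the first organoid set.

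On the GRCm38 assembly the genes lie at chr10:115450311-115587780 (Lgr5, ENSMUSG00000020140, minus strand), chr7:142966829-142969264 (Ascl2, ENSMUSG00000009248, minus), chr11:108920349-108950783 (Axin2, ENSMUSG00000000142, plus) and chr11:87662722-87735539 (Rnf43, ENSMUSG00000034177, plus). Znrf3 lies at chr11:5276324-5444847 (ENSMUSG00000041961, minus), Tnfrsf19 at chr14:60963875-61046490 (ENSMUSG00000060548, minus) and Smoc2 at chr17:14279506-14404790 (ENSMUSG00000023886, plus). Sox9 is at chr11:112782224-112787760 (ENSMUSG00000000567, plus) and Rgmb at chr17:15803188-15831039 (ENSMUSG00000048027, minus). The annotation places 1 gene on the opposite strand over part of each of Axin2, Lgr5, Rnf43, Smoc2 and Tnfrsf19, and whether the counting used strand was not given in the sources used here, so reads of these partners cannot be told apart from those of the 5 genes. RefSeq promoter windows of GRCm38.p6, from 250 bases before to 50 bases after a transcription start, were at hand for 5 of the 9 genes, in 9 entries. The windows of Ascl2, Axin2 and Tnfrsf19 are shown because these genes fell furthest in the A-485 series (Ascl2 and Axin2) or were among those that fell furthest after Eif4g2 deletion (Tnfrsf19, of whose 2 windows the one with a match is given). Capitals mark CTTTGA, letters of the core that TCF/LEF factors bind, searched on both strands and so also read as TCAAAG.

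Ascl2, chr7:142969215-142969514, minus strand: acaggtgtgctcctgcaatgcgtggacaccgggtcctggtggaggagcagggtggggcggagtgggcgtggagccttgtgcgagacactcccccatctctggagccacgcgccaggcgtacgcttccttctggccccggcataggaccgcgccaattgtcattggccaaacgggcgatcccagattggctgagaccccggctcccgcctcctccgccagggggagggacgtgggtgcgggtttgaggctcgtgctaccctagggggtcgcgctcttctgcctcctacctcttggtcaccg

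Axin2, chr11:108920099-108920398, plus strand: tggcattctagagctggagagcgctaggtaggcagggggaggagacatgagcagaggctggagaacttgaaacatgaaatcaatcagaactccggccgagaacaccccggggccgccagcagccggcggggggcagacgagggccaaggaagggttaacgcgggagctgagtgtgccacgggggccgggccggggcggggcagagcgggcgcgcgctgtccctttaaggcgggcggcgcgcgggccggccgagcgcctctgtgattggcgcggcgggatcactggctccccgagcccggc

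Tnfrsf19, chr14:61037938-61038237, minus strand: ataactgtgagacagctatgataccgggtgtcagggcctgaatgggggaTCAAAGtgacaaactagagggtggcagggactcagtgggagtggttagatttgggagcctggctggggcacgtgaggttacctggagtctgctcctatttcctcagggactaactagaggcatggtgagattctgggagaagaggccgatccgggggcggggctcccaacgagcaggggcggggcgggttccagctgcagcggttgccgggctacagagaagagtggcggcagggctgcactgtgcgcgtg

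The letters occurred in 1 of the 9 member entries, the Tnfrsf19 window above, as TCAAAG with its first base 201 bases before the start. Over all RefSeq mouse promoter windows of that length, 5257 of 32851 (16.0%) held them. These matches describe the windows and are not binding data, which were not analysed here.

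Total counts ran from 8652040 to 37611126 per library. Levels below are CPM, the counts of a gene scaled to a common library total, after scaling each table with edgeR's trimmed mean of M-values (TMM), so levels are comparable within a table, and tables were scaled separately. The Rosa26-CreER tissue, the Vil1-CreER tissue, the first organoid set with the A-485 series, and the second organoid set with the spheroids each form 1 table. Eif4g2 itself was lower, with no overlap between groups, in each of the 9 comparisons of homozygous deletion with a control, by 1.98- to 7.06-fold. Villus libraries of the Rosa26-CreER mice held 39630 to 69997 CPM summed over 8 enterocyte genes against 1715 to 6027 in their crypts. Mitochondrial transcripts took 13.7 to 25.2% of counts in the homozygous Rosa26-CreER crypts and 6.24 to 12.4% in the heterozygous ones, and 30.4 to 40.3% against 17.5 to 30.8% in the Vil1-CreER crypts. In bulk RNA, fewer cells of a type and less RNA per cell cannot be told apart, which holds for each result below.

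**Figure D1:**
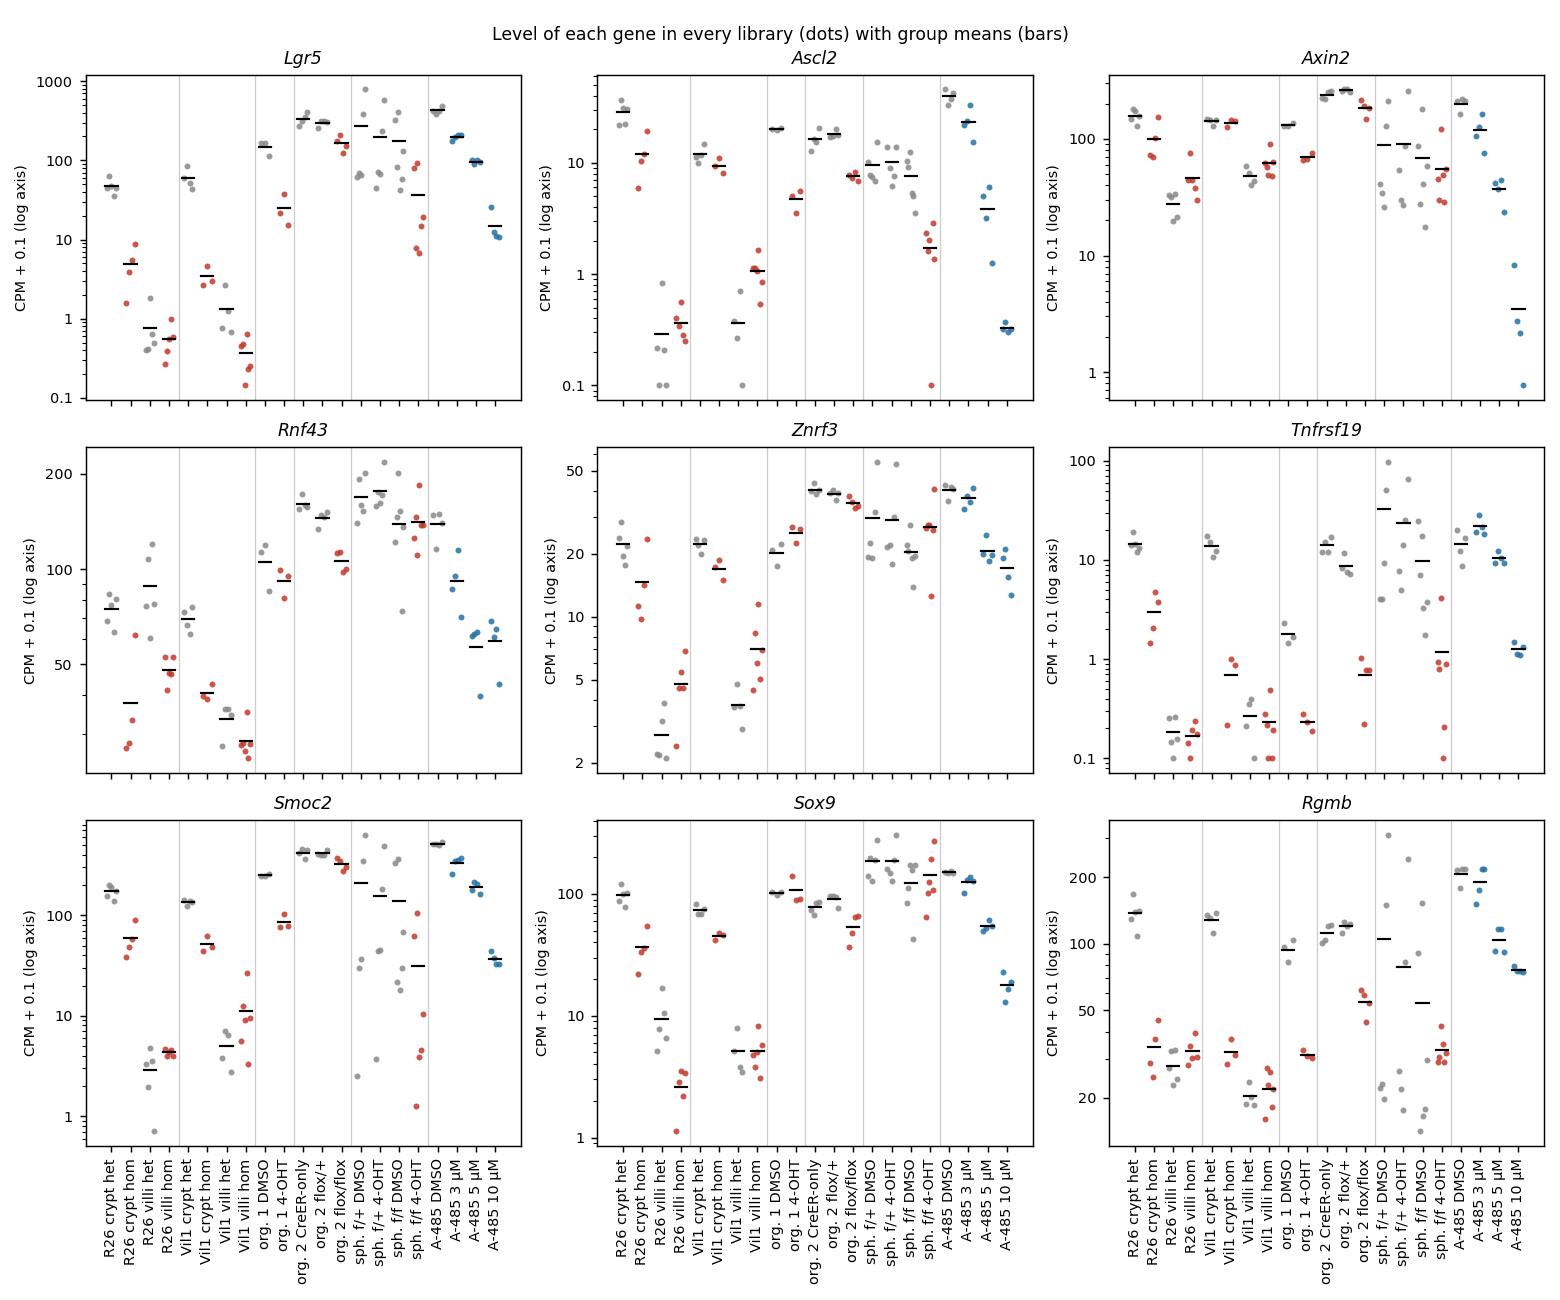
CPM (plus 0.1, log axis) of the 9 genes in each of 92 libraries, 1 panel per gene, with the 21 groups along the x axis; dots are libraries, short bars group means, red dots libraries with homozygous Eif4g2 deletion, blue dots libraries given A-485. Lgr5 runs from a mean of 0.2695 CPM in homozygous Vil1-CreER villi to 427 CPM in DMSO-treated organoids of the A-485 series, whereas Rnf43 runs only from 28.4 to 177 CPM.

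In heterozygous mice the stem cell markers Lgr5, Ascl2, Tnfrsf19 and Smoc2 were higher in crypts than in villi by 4.81 to 7.33 on the log2 scale in both mouse lines. Sox9, Znrf3, Rgmb and Axin2 were higher in crypts by 1.60 to 3.94, and Rnf43 was higher in crypts of only the Vil1-CreER mice. In Rosa26-CreER heterozygotes Lgr5 was at 44.9, 62.4, 47.8, 35.3 and 44.4 CPM in the 5 crypt libraries and at 0.307, 0.311, 1.73, 0.537 and 0.3897 CPM in the 5 villus libraries. Tnfrsf19 was at 14.02, 19.1, 14.2, 11.9 and 13.2 CPM in those crypts and between 0 and 0.161 CPM in the villi, and Ascl2 at 21.9, 36.3, 30.6, 22.3 and 30.4 CPM against 0 to 0.7399 CPM. For these stem cell genes no crypt library came near a villus library. The tests called 8 of the 9 genes higher in Rosa26-CreER crypts (40.6% of the 14793 genes tested were called higher) and 9 of 9 in Vil1-CreER crypts (35.2% of 15757), with medians over the 9 of 3.39 and 3.94 on the log2 scale against 0.09 and 0.08 over all genes tested.

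The feedback inhibitors Axin2 and Rnf43 and the co-receptor Rgmb had the highest levels of the 9 in villi per kilobase of gene length. Axin2 kept a mean of 27.8 ± 6.82 CPM (mean ± SD, n = 5) in Rosa26-CreER heterozygous villi and 48.4 ± 8.11 CPM (n = 4) in Vil1-CreER villi, against 158 and 142 CPM in the matching crypts. Rnf43 was at 76.2, 108, 60.5, 120.3 and 77.3 CPM in the Rosa26-CreER villi and at 68.2, 83.4, 77.1, 63.2 and 80.6 CPM in the crypts, so the groups overlapped (log2 fold change -0.25 ± 0.16, edgeR adjusted p 0.185). In Vil1-CreER mice, though, Rnf43 was 2.15-fold higher in crypts (log2 fold change 1.101 ± 0.11, edgeR adjusted p 9.11e-06). Per kilobase of gene length (RPKM), Axin2 had the highest mean level of the 9 in heterozygous crypts of the Rosa26-CreER mice, 28.7 ± 3.82, and Lgr5 was the seventh at 4.58 ± 0.959. In their villi Rnf43 had the highest RPKM, 13.5 ± 3.76, followed by Axin2 at 5.05 ± 1.24 and Rgmb at 3.64 ± 0.601.

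In crypts of Rosa26-CreER mice, 7 of the 9 genes fell on homozygous deletion of Eif4g2, and Axin2 and Znrf3 did not pass the test. The R-spondin receptor Lgr5 fell furthest, 9.396-fold, and Rnf43 least among those that fell, 1.93-fold. All 9 genes passed the filter on low counts in each comparison of crypts, organoids or spheroids. A call is a Benjamini-Hochberg adjusted p under 0.05 over all genes tested in edgeR's quasi-likelihood test, and here 20.2% of 15846 genes were called, 11.6% lower and 8.63% higher. The median log2 fold change of the 9 genes was -1.37, and that of all genes tested 0.04. Lgr5 had 1.48, 3.803, 5.36 and 8.66 CPM in the 4 homozygous crypt libraries, all below the lowest heterozygous one at 35.3 CPM (log2 fold change -3.23 ± 0.42, edgeR adjusted p 0.00133, here and below ± standard error).

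Among the feedback inhibitors, Rnf43 was at 27.02, 28.01, 33.1 and 61.99 CPM in homozygous and 68.2, 83.4, 77.1, 63.2 and 80.6 CPM in heterozygous crypts (log2 fold change -0.95 ± 0.22, edgeR adjusted p 0.0164). The groups did not overlap, though the highest homozygous library, replicate 5, lay just under the heterozygous range. Axin2 was at 72.2, 69.7, 102 and 154 CPM against 149, 182, 174, 129 and 157 CPM, and the same replicate 5 lay inside the heterozygous range (log2 fold change -0.63 ± 0.21, edgeR adjusted p 0.0629). Znrf3 also overlapped through that library, with 11.1, 9.696, 14.1 and 23.6 CPM in homozygous crypts (log2 fold change -0.56 ± 0.24, edgeR adjusted p 0.12). Without replicate 5 both were called (edgeR adjusted p 0.00482 for Axin2 and 0.00816 for Znrf3), and in none of the other 8 fits that left out 1 library.

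Both transcription factors fell. Ascl2 was at 5.85, 10.3, 11.9 and 18.98 CPM in homozygous and 21.9, 36.3, 30.6, 22.3 and 30.4 CPM in heterozygous crypts, without overlap (log2 fold change -1.22 ± 0.29, edgeR adjusted p 0.0185). Sox9 was at 21.9, 33.6, 35.6 and 54.7 CPM, each below the heterozygous minimum of 78.5 CPM (log2 fold change -1.37 ± 0.22, edgeR adjusted p 0.00375). Without homozygous replicate 4, neither Ascl2 (edgeR adjusted p 0.0624) nor Rnf43 (0.0736) was called, and Rnf43 was not called without homozygous replicate 1 (0.0589) either.

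The surface and secreted proteins fell with no overlap between groups. Tnfrsf19 had 1.35, 1.95, 4.65 and 3.704 CPM in homozygous crypts and at least 11.9 CPM in heterozygous ones (log2 fold change -2.26 ± 0.34, edgeR adjusted p 0.00278). Rgmb had 28.8, 24.7, 37.04 and 45.1 CPM against 129, 168, 139.5, 108 and 141 CPM, 3.91-fold lower (log2 fold change -1.97 ± 0.18, edgeR adjusted p 0.000266). Smoc2 had 38.6, 48.7, 57.97 and 89.3 CPM against 140.03 to 201 CPM (log2 fold change -1.52 ± 0.21, edgeR adjusted p 0.00198). Homozygous replicate 1 was the lowest of the 4 for Lgr5, Ascl2, Smoc2, Sox9, Tnfrsf19 and Rnf43, and it had the highest mitochondrial share of counts, 25.2%.

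Other measures moved with these genes in the same libraries. The summed level of 8 Paneth cell genes, neighbours of the stem cells that supply Wnt3, was 2517 to 11076 CPM in homozygous and 17025 to 23468 CPM in heterozygous crypts, with none of the 8 at 0. Goblet cell markers summed to 1838 to 4891 CPM against 5143 to 9740 CPM, enteroendocrine markers to 69.3 to 216 CPM against 369 to 643 CPM and proliferation markers to 445 to 825 CPM against 894 to 1093 CPM, each without overlap. Stromal markers summed to 56.3 to 2458 CPM against 50.2 to 1064 CPM over 12 genes, and immune markers to 55.5 to 531 CPM against 75.1 to 289 CPM. Markers of fetal-like epithelium summed to 61.1 to 421 CPM against 19.2 to 114 CPM, with overlap. Ddx3y, a Y-linked gene, had no reads in 3 of the 4 homozygous libraries and 395 to 957 reads in all 5 heterozygous ones. Homozygous replicate 1 was the only homozygous library with such reads. A fit with their presence as a covariate therefore sets that library alone against the heterozygous ones. It put Lgr5 at -4.90 on the log2 scale and cannot tell whether the calls depend on the presence of Ddx3y reads. The part of these marker and mitochondrial differences in the results was not tested.

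**Figure D2:**
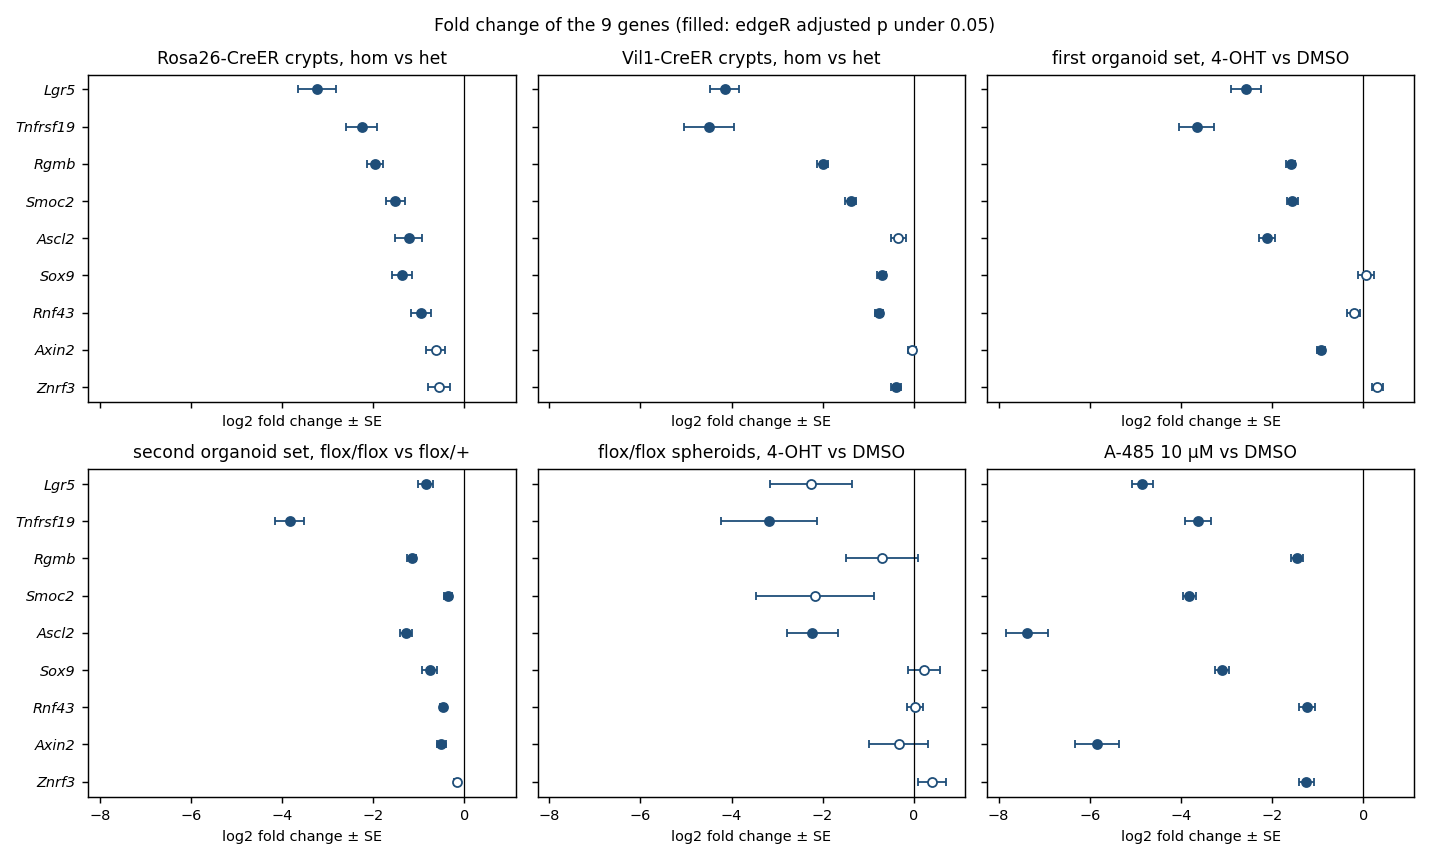
Log2 fold change of each of the 9 genes with its standard error in 6 comparisons (edgeR), filled where the adjusted p is under 0.05, with 0 marked as a vertical line. Lgr5, Tnfrsf19, Rgmb, Smoc2, Ascl2 and Axin2 lie left of 0 in each of the 6 panels. Znrf3 and Sox9 lie right of 0 in the first organoid set and the flox/flox spheroids, and Rnf43 in the spheroids alone.

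In Vil1-CreER crypts, 3 months after deletion in the epithelium, 7 of the 9 genes were again lower, but not the same 7. Znrf3 was called here and Ascl2 was not, and Axin2 was called in neither crypt comparison. In this comparison 29.3% of 16954 genes were called and 17.7% called lower, and the median log2 fold change was -0.77 over the 9 genes and 0.01 over all. Eif4g2 itself, 3.93-fold lower in Rosa26-CreER crypts, was 1.98-fold lower here, at means of 237 CPM in homozygous and 471 CPM in heterozygous crypts. Lgr5 was at 2.57, 4.48 and 2.91 CPM in the 3 homozygous crypt libraries and 59.8, 83.9, 51.9 and 43.5 CPM in the 4 heterozygous ones, 17.8-fold lower log2 fold change -4.15 ± 0.32, edgeR adjusted p 0.000245. Tnfrsf19 fell further still, from 17.5, 15.2, 10.6 and 12.3 CPM to 0.115, 0.906 and 0.763 CPM (log2 fold change -4.49 ± 0.55, edgeR adjusted p 0.0014).

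Axin2, in contrast, had nearly the same level in both genotypes. It was at 127, 144 and 144 CPM in homozygous and 148, 146, 128 and 145 CPM in heterozygous crypts, with overlapping groups (log2 fold change -0.03 ± 0.08, edgeR adjusted p 0.786). The other feedback inhibitors were lower by smaller factors than Lgr5: Rnf43 at 39.7, 38.7 and 43.2 CPM against 62.4 to 75.8 CPM (log2 fold change -0.77 ± 0.09, edgeR adjusted p 0.000681), and Znrf3 at 17.2, 18.6 and 14.9 CPM against 19.9 to 23.5 CPM (log2 fold change -0.38 ± 0.11, edgeR adjusted p 0.0263). Neither pair of groups overlapped, but Znrf3 was called in only 3 of the 7 fits that left out 1 library, with an edgeR adjusted p of up to 0.0983.

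Ascl2 stood at 9.16, 10.9 and 7.94 CPM in homozygous and 11.2, 9.75, 11.7 and 14.7 CPM in heterozygous crypts (log2 fold change -0.34 ± 0.17, edgeR adjusted p 0.184). The heterozygous level was itself lower than in the Rosa26-CreER table, where it was 28.3 ± 6.15 CPM, though the 2 tables were scaled separately. Sox9 fell 1.63-fold, from 68.7 to 83.2 CPM in heterozygous crypts to 41.9, 47.5 and 46.2 CPM (log2 fold change -0.71 ± 0.09, edgeR adjusted p 0.00112). Rgmb was at 28.5, 36.7 and 31.1 CPM against 134, 131, 112 and 137 CPM (log2 fold change -1.998 ± 0.12, edgeR adjusted p 4.7e-05), almost the same pair of levels as in the Rosa26-CreER crypts. Smoc2 was at 44.3, 62.4 and 48.01 CPM against 124 to 141 CPM (log2 fold change -1.38 ± 0.12, edgeR adjusted p 0.00023). Paneth markers summed to 358 to 943 CPM in homozygous and 3318 to 7394 CPM in heterozygous crypts. Goblet cell markers summed to 1456 to 2013 CPM against 3861 to 5947 CPM, enteroendocrine markers to 129.6 to 134 CPM against 492 to 574 CPM and proliferation markers to 856 to 1007 CPM against 1171 to 1435 CPM. Markers of fetal-like epithelium were higher in homozygous crypts, at 179 to 241 CPM against 8.27 to 48.0 CPM. The part of these markers in the differences was not tested.

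Villi carried few reads of the stem cell genes, and the genes that could be tested there moved in mixed directions. In Rosa26-CreER villi 7 of the 9 genes passed the filter on low counts, Ascl2 and Tnfrsf19 did not, and 2 were lower and 1 higher, where 33.2% of 13579 genes were called, 18.2% lower and 15.0% higher. The median over the 7 genes was 0.17 on the log2 scale and that over all genes -0.01. Sox9 was at 1.03, 2.75, 3.42, 2.08 and 3.29 CPM in homozygous and 5.03, 7.69, 16.8, 10.4 and 6.46 CPM in heterozygous villi, lower without overlap (log2 fold change -1.93 ± 0.39, edgeR adjusted p 0.00352). Rnf43 fell from between 60.5 and 120.3 CPM to 52.8, 41.2, 47.00, 46.5 and 52.7 CPM, also without overlap (log2 fold change -0.92 ± 0.16, edgeR adjusted p 0.0018). Axin2 rose, at 43.9, 75.9, 44.8, 38.1 and 29.8 CPM against 33.2, 31.4, 19.5, 33.6 and 21.3 CPM, but the groups overlapped and 3 of the 10 fits that left out 1 library kept the call (log2 fold change 0.69 ± 0.24, edgeR adjusted p 0.0422). Ddx3y had no reads in 3 of the 5 homozygous villus libraries and 395 to 613 reads in all 5 heterozygous ones. A fit with their presence as a covariate, which sets the other homozygous libraries alone against the heterozygous ones, changed no call of a member.

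In Vil1-CreER villi 8 of the 9 genes could be tested, all but Tnfrsf19, and 1 was lower and 2 higher, among 42.5% of 15107 genes called, 21.6% lower and 20.9% higher. Lgr5 ranged from 0.0437 to 0.546 CPM with a median of 0.257 CPM in the 6 homozygous libraries and was at 0.674, 2.54, 1.16 and 0.572 CPM in the 4 heterozygous ones, just without overlap (log2 fold change -2.21 ± 0.57, edgeR adjusted p 0.00732). Ascl2 was at 0 to 0.601 CPM in heterozygous and rose to between 0.437 and 1.56 CPM in homozygous libraries, a level of few reads (log2 fold change 1.83 ± 0.63, edgeR adjusted p 0.0309). Znrf3 rose from 3.597, 4.66, 3.65 and 2.82 CPM to between 4.39 and 11.4 CPM (log2 fold change 0.899 ± 0.28, edgeR adjusted p 0.0202). Without 1 or another library Ascl2 kept its call in 5 of 10 fits and Znrf3 in 8 of 10. The median over the 8 genes was 0.22 on the log2 scale and over all genes 0.05.

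The genotype effect differed between villi and crypts for several genes when the difference itself was tested, with the crypts and villi of an animal entered as separate samples. In Rosa26-CreER mice the effect was higher, that is less negative or more positive, in villi for 5 genes, Axin2, Lgr5, Rgmb, Smoc2 and Znrf3 (6.68% of all genes tested were called in that direction). In Vil1-CreER mice it was higher in villi for 6 genes, Ascl2, Rgmb, Rnf43, Smoc2, Tnfrsf19 and Znrf3 (9.38%). Rgmb had the smallest p of the 9 in both, with a difference of 2.23 ± 0.23 and 2.12 ± 0.22 on the log2 scale (edgeR adjusted p 4.39e-05 and 8.53e-05). In Rosa26-CreER mice its level in homozygous crypts, 33.9 ± 9.06 CPM, was close to that in homozygous villi, 32.6 ± 4.43 CPM, whereas in Vil1-CreER mice it was 32.1 ± 4.22 against 21.95 ± 4.398 CPM, without overlap. Tnfrsf19 was at a mean of 0.166 and 0.1295 CPM in heterozygous and homozygous Vil1-CreER villi and did not pass the filter there, so its difference restates its fall in crypts.

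Ratios of crypt to villus CPM within each animal show the same values animal by animal. For Rgmb the ratio was 3.29 to 6.13 in heterozygous and 0.813 to 1.48 in homozygous Rosa26-CreER animals, so 2 of the 4 homozygotes had less Rgmb in crypts than in villi. In Vil1-CreER animals it was 5.54 to 7.42 against 1.19 to 1.79. Lgr5 was 27.7- to 201-fold higher in crypts than villi of heterozygous Rosa26-CreER animals and 6.10- to 17.8-fold higher in homozygous ones, and in Vil1-CreER animals 33.1- to 88.7-fold against 5.33- to 11.7-fold. For Sox9 the ratio was 5.92 to 17.2 in heterozygous and 9.81 to 21.2 in homozygous Rosa26-CreER animals, whose crypts and villi both had less Sox9 than those of heterozygotes. In Vil1-CreER animals it was 8.77 to 22.4 against 5.63 to 12.9, and the villi had a mean of 5.02 CPM in homozygotes and 4.99 CPM in heterozygotes.

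**Figure D3:**
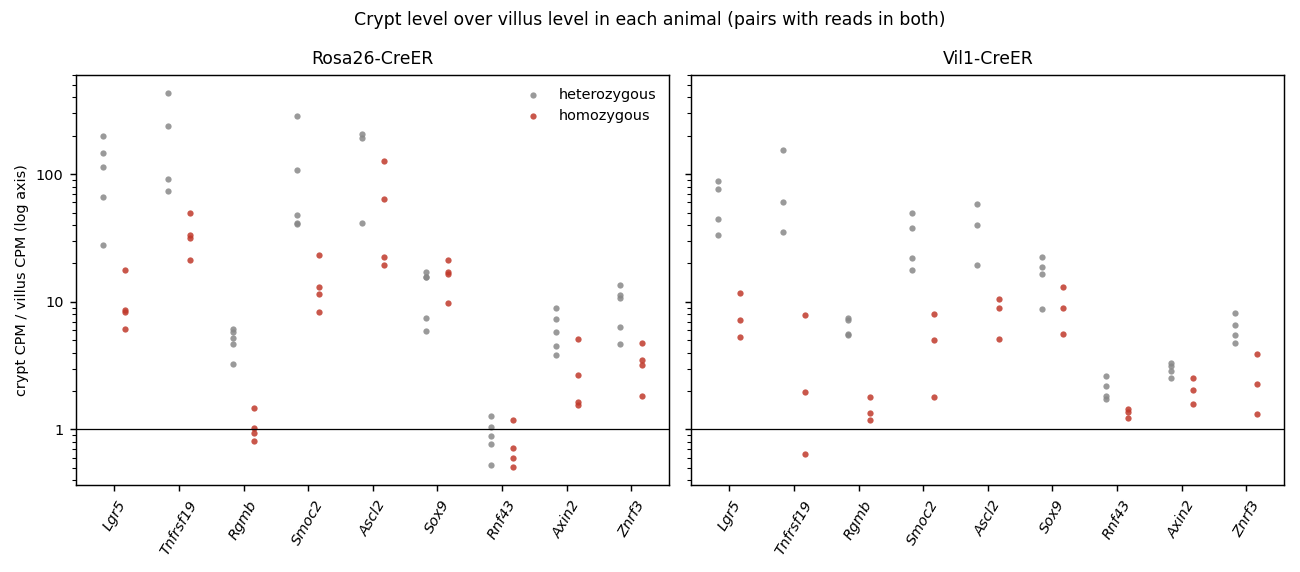
Ratio of CPM in crypts to CPM in villi of the same animal (log axis) for the 9 genes, grey for heterozygous and red for homozygous animals, with Rosa26-CreER and Vil1-CreER mice side by side and only pairs with reads in both tissues. Rgmb points of homozygous animals sit between 0.813 and 1.79 and those of heterozygous animals between 3.29 and 7.42.

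In the first organoid set, 6 of the 9 genes fell after 4-OHT, and Rnf43, Sox9 and Znrf3 did not pass the test. In this comparison 35.4% of 15297 genes were called and 17.2% called lower, and the median log2 fold change was -1.55 over the 9 genes and 0.03 over all. Lgr5 was at 164, 166 and 113 CPM with DMSO and 21.3, 37.99 and 15.4 CPM with 4-OHT in lines S6070, S6072 and S2080, a within-line fall of 4.36- to 7.67-fold log2 fold change -2.57 ± 0.34, edgeR adjusted p 0.00169. Tnfrsf19, already low with DMSO at 2.24, 1.34 and 1.55 CPM, was left with 0.179, 0.131 and 0.0901 CPM, or 3 to 6 reads per library (log2 fold change -3.65 ± 0.38, edgeR adjusted p 0.000795). All 3 lines changed the same way for both genes.

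Ascl2 was at 20.1, 19.6 and 20.2 CPM with DMSO and 4.97, 3.45 and 5.47 CPM with 4-OHT (log2 fold change -2.11 ± 0.18, edgeR adjusted p 0.000448). Sox9, the other transcription factor, was at 104, 97.8 and 103 CPM and then 140.2, 89.7 and 91.00 CPM, higher in 1 line and lower in the other 2 (log2 fold change 0.06 ± 0.17, edgeR adjusted p 0.805). The feedback inhibitors split: Axin2 was at 129.9, 129 and 136 CPM and fell to 66.5, 67.1 and 75.9 CPM (log2 fold change -0.92 ± 0.08, edgeR adjusted p 0.000522), while Rnf43 went from 113, 119 and 84.9 CPM to 99.5, 80.7 and 94.9 CPM with overlap (log2 fold change -0.21 ± 0.14, edgeR adjusted p 0.299). Znrf3 was 1.18- to 1.29-fold higher with 4-OHT in 3 of 3 lines (log2 fold change 0.31 ± 0.13, edgeR adjusted p 0.0969), and a fit with the line as a block called it higher (edgeR adjusted p 0.0278). Smoc2 was at 248, 243 and 258 CPM and then 76.2, 102 and 77.96 CPM (log2 fold change -1.55 ± 0.12, edgeR adjusted p 0.000376), and Rgmb at 96.1, 82.1 and 104 CPM and then 32.9, 30.9 and 30.3 CPM (log2 fold change -1.59 ± 0.10, edgeR adjusted p 0.000235). Paneth markers summed to 247 to 535 CPM with 4-OHT and 2040 to 2438 CPM with DMSO, and the 12 stromal markers to at most 14.5 CPM in either group. Goblet cell markers summed to 796 to 2535 CPM against 5247 to 6104 CPM and enteroendocrine markers to 43.2 to 165 CPM against 394 to 556 CPM. Markers of fetal-like epithelium were higher with 4-OHT, at 1547 to 2554 CPM against 593 to 872 CPM. The part of these markers was not tested.

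The second organoid set compared genotypes that had all received 4-OHT. Against flox/+ lines 8 of the 9 genes were lower in flox/flox lines (46.8% of 14220 genes were called, 24.3% lower), and against CreER-only lines 9 of 9 (45.3%, 23.5% lower). The 2 comparisons share the 4 flox/flox lines, so their values stand side by side. The median log2 fold change was -0.76 and -0.61 over the 9 genes, and -0.01 and 0.00 over all. Lgr5 was at 177, 209, 125 and 153 CPM in flox/flox, 258, 309.5, 317 and 305 CPM in flox/+ and 273, 316, 354 and 403 CPM in CreER-only lines. The highest flox/flox line stayed below the lowest control line.

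Tnfrsf19 had the largest change in this set, with 0.929, 0.123, 0.671 and 0.673 CPM in flox/flox and 8.28, 11.7, 7.49 and 7.11 CPM in flox/+ lines (log2 fold change -3.84 ± 0.32, edgeR adjusted p 4.74e-07). Ascl2 was at 7.62, 7.22, 8.16 and 6.73 CPM against 16.98, 17.2, 19.97 and 17.7 CPM (log2 fold change -1.28 ± 0.13, edgeR adjusted p 2.88e-06), and Rgmb at 61.4, 58.2, 44.2 and 53.6 CPM against 112, 126, 121 and 122 CPM (log2 fold change -1.15 ± 0.10, edgeR adjusted p 3.96e-07). In each of these 3 genes the groups stood apart. Lgr5, Smoc2 and the feedback inhibitors changed by smaller factors: Lgr5 by 1.801-fold, Axin2 by 1.42-fold, Rnf43 by 1.38-fold and Smoc2 by 1.28-fold (edgeR adjusted p 0.00112, 0.000515, 3.98e-05 and 0.00516). Sox9 was at 36.8, 47.9, 64.8 and 65.6 CPM in flox/flox and 95.9, 96.3, 94.3 and 75.9 CPM in flox/+ lines (log2 fold change -0.76 ± 0.17, edgeR adjusted p 0.00314). Znrf3 was at 37.8, 35.4, 33.2 and 33.7 CPM against 39.1, 40.6, 36.3 and 38.96 CPM (log2 fold change -0.15 ± 0.07, edgeR adjusted p 0.072) and was called lower only against CreER-only lines (log2 fold change -0.22 ± 0.07, edgeR adjusted p 0.0163).

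Loss of 1 copy of Eif4g2 gave no call among the 9 genes when flox/+ lines were set against CreER-only lines. Over all genes 0.113% were called, 0.0633% lower and 0.0492% higher, or 16 genes by edgeR, and 1481 had an unadjusted p under 0.05. DESeq2's Wald test called 0 of the 9 as well, and over all genes 76 higher and 70 lower. The lowest edgeR adjusted p among the members was that of Tnfrsf19 (0.313). Tnfrsf19 was at 8.28, 11.7, 7.49 and 7.11 CPM in flox/+ and 11.9, 15.2, 11.9 and 16.8 CPM in CreER-only lines, which did not overlap (log2 fold change -0.68 ± 0.23, edgeR adjusted p 0.313). Rnf43 was at 134, 148, 146 and 151 CPM against 155, 173, 159.6 and 158 CPM, again without overlap (log2 fold change -0.15 ± 0.06, edgeR adjusted p 0.426). Paneth markers summed to 1530 to 1934 CPM in flox/flox and 6038 to 6686 CPM in flox/+ lines, and enteroendocrine markers to 232 to 287 CPM against 576 to 808 CPM. Their part in the flox/flox differences was not tested.

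Fetal spheroids differed widely between lines before any deletion. With DMSO, Lgr5 ran from 42.5 to 411 CPM, median 106, over the 6 flox/flox lines and was at 61.9, 70.1, 65.5, 381 and 788 CPM in the 5 flox/+ lines. Smoc2 ran from 17.96 to 366 CPM, median 48.8, and was at 2.43, 29.9, 36.7, 346 and 631 CPM. The lines S9484-A and S9484-D among flox/flox and S9612-A and S9020-C among flox/+ lines held the highest values of both genes and of Rgmb. Summed Paneth markers were spread as widely, from 100.5 to 4541 CPM in flox/flox and 117 to 5962 CPM. No gene of the 9 was called between the genotypes under DMSO, where edgeR called 0% of 15032 genes and 1084 had an unadjusted p under 0.05. DESeq2's Wald test called 0 of the 9 there, and over all genes 1 higher and 1 lower.

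After 4-OHT in flox/flox spheroids 2 of the 9 genes, Ascl2 and Tnfrsf19, passed the test that treats lines as independent, among 19.1% of 15032 genes called, 10.0% lower and 9.01% higher. The median log2 fold change was -0.70 over the 9 genes and -0.02 over all. Ascl2 ran from 3.47 to 12.4 CPM, median 7.15, with DMSO and from 0 to 2.78 CPM, median 1.73, with 4-OHT, without overlap (log2 fold change -2.22 ± 0.56, edgeR adjusted p 0.00803). Tnfrsf19 ran from 1.65 to 24.6 CPM and then from 0 to 3.99 CPM, with overlap (log2 fold change -3.17 ± 1.06, edgeR adjusted p 0.0409). Its call was lost without the filter on low counts (edgeR adjusted p 0.0948) and when only these groups were fitted (0.0513).

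Within lines the falls covered 4 genes. Lgr5 was lower in 6 of 6 lines, by 3.99- to 10.7-fold, from 411 to 92.0 CPM in S9484-A and from 42.5 to 6.69 CPM in S9488-D. Smoc2 was lower in 6 of 6, by 3.504- to 18.4-fold. Ascl2 and Tnfrsf19 were lower in 6 of 6 as well, by 1.78- to 6.39-fold and 4.39- to 29.4-fold in the 5 lines with reads in both libraries. A fit with the line as a block called these 4 and no other member, Lgr5 at -2.50 ± 0.20 and Smoc2 at -2.60 ± 0.25 on the log2 scale (edgeR adjusted p 0.000139 and 0.000382). The shares of all genes called given above are from the fit without the block and do not apply to this count. Without the block Lgr5 was at -2.26 ± 0.90 and Smoc2 at -2.17 ± 1.29 (edgeR adjusted p 0.0858 and 0.267). In the same libraries goblet cell markers summed to 2882 to 18976 CPM with DMSO and 197 to 1626 CPM with 4-OHT, without overlap. Paneth markers had medians of 255 and 15.9 CPM and enteroendocrine markers of 544 and 28.5 CPM, with overlap, and the part of these markers in the results was not tested.

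The other 5 genes did not move together across spheroid lines. Axin2 was lower in 3 and higher in 3 of the 6 flox/flox lines (log2 fold change -0.32 ± 0.65, edgeR adjusted p 0.786), and Sox9 likewise (log2 fold change 0.23 ± 0.34, edgeR adjusted p 0.707). Rnf43 was higher in 4 and lower in 2 (log2 fold change 0.02 ± 0.17, edgeR adjusted p 0.957), and Znrf3 higher in 5 and lower in 1 (log2 fold change 0.396 ± 0.30, edgeR adjusted p 0.403). Rgmb was 3.61- and 3.11-fold lower with 4-OHT in the 2 S9484 lines, which were the highest with DMSO, and was higher in the other 4, so that all 6 ended between 29.1 and 42.4 CPM.

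In flox/+ spheroids none of the 9 genes was called after 4-OHT in the test that treats lines as independent. Eif4g2 itself was not called there either, at means of 527 CPM with 4-OHT and 928 CPM with DMSO, without overlap. The missing calls therefore do not show that levels were unchanged. The edgeR test called 0% of 15032 genes, 15 had an unadjusted p under 0.05, DESeq2's Wald test called 0 genes, and the members' log2 fold changes ran from -0.47 to 0.08. Lgr5 was at 45.2, 71.8, 66.2, 233 and 579.9 CPM after 4-OHT, lower in 3 and higher in 2 of the 5 lines. When 4-OHT-treated genotypes were compared, Ascl2 (log2 fold change -2.62 ± 0.58, edgeR adjusted p 0.00588) and Tnfrsf19 (log2 fold change -4.46 ± 1.13, edgeR adjusted p 0.0152) were lower in flox/flox lines without overlap, where 10.5% of all genes were called and 6.13% called lower. Without line S9020-C, the flox/+ line with the highest Lgr5, both kept the call (edgeR adjusted p 0.0171 and 0.0408), and without its 4-OHT library alone Tnfrsf19 did not (0.05003). The median log2 fold change was -1.24 over the 9 genes and 0.01 over all.

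The difference between the 4-OHT effects of the genotypes was not called for any member without the line as a block, where 1.62% of all genes were called and Ascl2 had the lowest edgeR adjusted p of the 9, 0.158. With the block it was called for Lgr5 at -2.18 ± 0.24, Smoc2 at -2.57 ± 0.38, Tnfrsf19 at -3.39 ± 0.65 and Ascl2 at -2.44 ± 0.66 on the log2 scale (edgeR adjusted p 0.000123, 0.00112, 0.00472 and 0.0221). The share of all genes called with the block is not given here.

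Spheroids and organoids of the same genotype and treatment, flox/+ with 4-OHT, were compared within their table. Ascl2 was lower in spheroids, at 13.7, 8.79, 6.12, 7.46 and 13.8 CPM against 16.98, 17.2, 19.97 and 17.7 CPM (log2 fold change -0.898 ± 0.24, edgeR adjusted p 0.0128), and Sox9 was higher, at 159, 147, 127, 191 and 305 CPM against 95.9, 96.3, 94.3 and 75.9 CPM (log2 fold change 0.99 ± 0.24, edgeR adjusted p 0.00761). These were 2 of the 9 genes, 1 in each direction, where 47.9% of 14522 genes were called, 22.8% lower and 25.1% higher. Without line S9020-C 6 genes were called, with Axin2, Lgr5, Rgmb and Znrf3 lower as well (log2 fold changes -2.41, -1.53, -1.71 and -0.77). The share of all genes called without that line is not given here. Culture type and preparation cannot be told apart here.

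**Figure D4:**
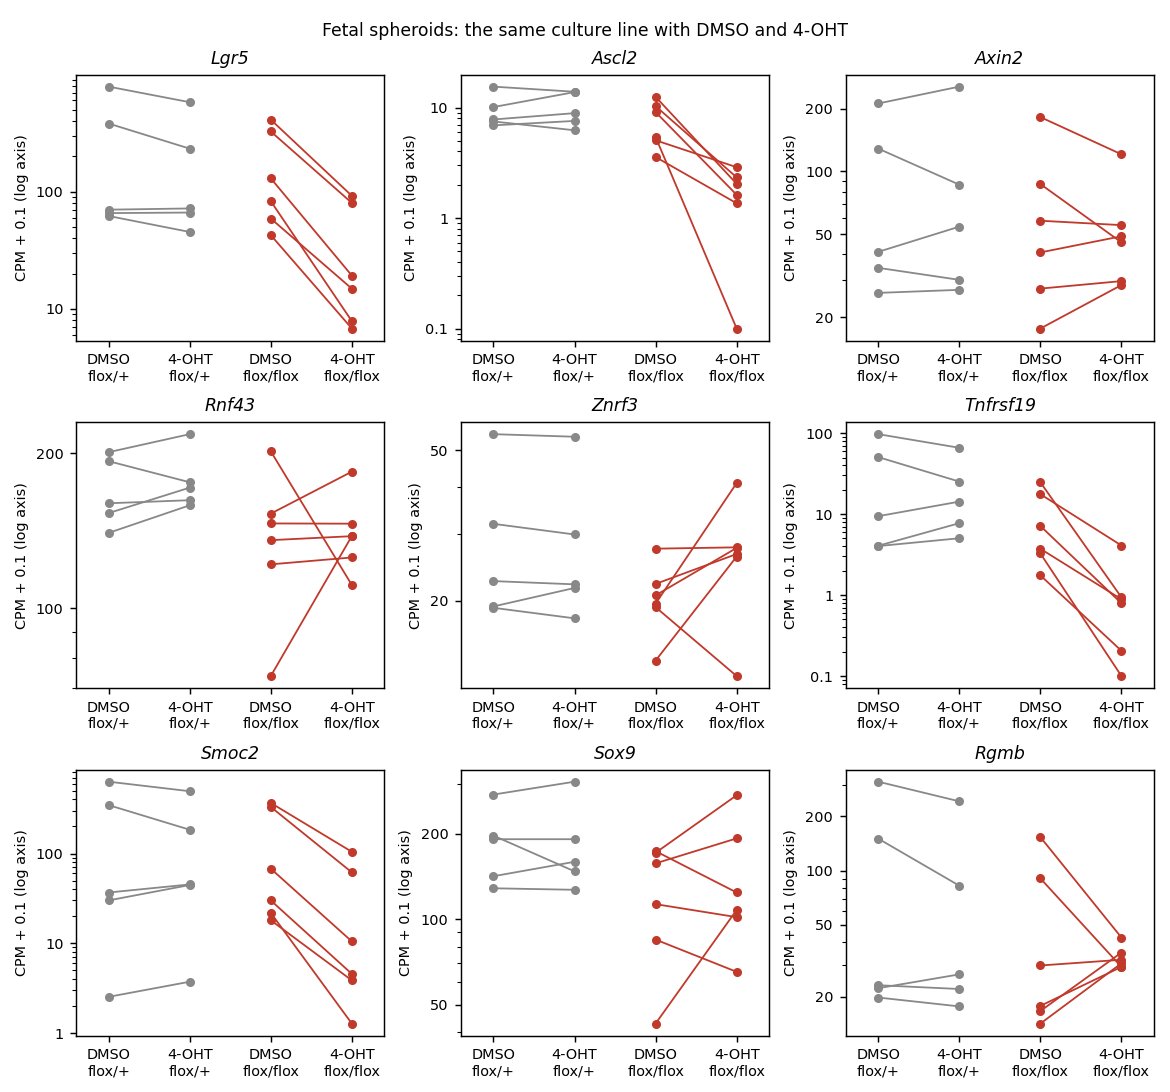
CPM (plus 0.1, log axis) of the 9 genes in each fetal spheroid line with DMSO and with 4-OHT, 1 connecting line per culture line, grey for flox/+ and red for flox/flox. Red lines slope down in 6 of 6 lines for Lgr5, Ascl2, Tnfrsf19 and Smoc2, and the DMSO values of Lgr5 span 42.5 to 788 CPM.

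With A-485 all 9 genes were lower at 10 µM than with DMSO, by very different amounts. At 3 µM 3 genes were lower, at 5 µM 8 and at 10 µM 9, against 8.42%, 25.1% and 32.6% of 13724 genes called lower (19.2%, 49.6% and 62.0% called in either direction). At 3 µM 10.8% were called higher. The medians over the 9 genes were -0.60, -1.45 and -3.63 on the log2 scale, and over all genes 0.00, -0.02 and -0.05. The 3 doses share the 4 DMSO libraries, so their values are given side by side and the steps between doses were tested on their own. From 3 to 5 µM all 9 genes fell (13.0% of all genes were called lower), and from 5 to 10 µM 7 of 9 (12.4%).

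Lgr5 was at 425, 389.6, 414 and 482 CPM with DMSO in lines S6026, S6070, S6074 and S6076, at 174, 198, 212 and 208 CPM at 3 µM, at 100, 89.7, 99.4 and 95.4 CPM at 5 µM and at 25.4, 12.3, 11.1 and 10.6 CPM at 10 µM. No 2 neighbouring doses overlapped, and the means were 46.3%, 22.5% and 3.47% of the DMSO mean. Smoc2 followed with 64.5%, 36.7% and 7.13%, from 507, 515, 503 and 539.8 CPM with DMSO to 43.5, 37.7, 32.9 and 32.98 CPM at 10 µM (log2 fold change -3.81 ± 0.14, edgeR adjusted p 8.8e-13).

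Ascl2 and Axin2 lost most at the upper doses. Ascl2 was at 45.5, 33.05, 37.3 and 41.9 CPM with DMSO, 21.8, 23.4, 32.7 and 15.3 CPM at 3 µM and 4.94, 3.09, 5.901 and 1.16 CPM at 5 µM. At 10 µM each library held 2 to 4 Ascl2 reads, or 0.579% of the DMSO mean (log2 fold change -7.37 ± 0.46, edgeR adjusted p 3.07e-10). Axin2 was at 211, 163, 219 and 209.6 CPM with DMSO, 106, 128, 165 and 75.9 CPM at 3 µM, 41.5, 37.3, 44.8 and 23.5 CPM at 5 µM and 8.22, 2.66, 2.07 and 0.669 CPM at 10 µM (log2 fold change -5.84 ± 0.48, edgeR adjusted p 3.63e-08). At 3 µM both genes were lower in 4 of 4 lines without passing the test (edgeR adjusted p 0.0856 and 0.172), and both passed it with the line as a block (0.0497 and 0.0306). The mean of Axin2 at 10 µM, 3.404 ± 3.32 CPM, was its lowest over the 21 groups, below each villus group.

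The other feedback inhibitors kept a larger share. Rnf43 was at 149, 116, 149 and 140.1 CPM with DMSO and 86.4, 95.04, 115 and 70.2 CPM at 3 µM (log2 fold change -0.597 ± 0.17, edgeR adjusted p 0.0205). At 5 µM it was at 61.2, 62.4, 63.1 and 39.6 CPM and at 10 µM at 68.3, 60.8, 64.6 and 43.1 CPM, and the step between these doses did not pass the test (log2 fold change 0.06 ± 0.17, edgeR adjusted p 0.853). Znrf3 was at 42.5, 35.9, 41.9 and 40.99 CPM with DMSO and 32.8, 38.00, 35.5 and 41.1 CPM at 3 µM (log2 fold change -0.13 ± 0.16, edgeR adjusted p 0.607). It reached 19.9, 24.7, 18.4 and 19.6 CPM at 5 µM and 19.1, 20.98, 15.4 and 12.6 CPM at 10 µM, and that last step did not pass the test (log2 fold change -0.28 ± 0.16, edgeR adjusted p 0.255). At 10 µM 42.8% of the DMSO mean was left for Rnf43 and 42.1% for Znrf3.

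Neither Tnfrsf19 nor Rgmb passed the test at 3 µM. Tnfrsf19 was at 19.8, 12.3, 8.57 and 16.6 CPM with DMSO and 19.00, 28.4, 21.4 and 18.05 CPM at 3 µM, higher in 3 of 4 lines (log2 fold change 0.596 ± 0.24, edgeR adjusted p 0.0883). It then fell to 9.15, 12.3, 10.4 and 9.31 CPM at 5 µM and 1.38, 1.02, 1.002 and 1.23 CPM at 10 µM, or 8.08% of the DMSO mean (log2 fold change -3.63 ± 0.28, edgeR adjusted p 4.56e-09). Rgmb was at 216, 179, 218 and 218 CPM with DMSO and 151, 175, 219 and 219 CPM at 3 µM, with 2 lines higher and 2 lower (log2 fold change -0.12 ± 0.12, edgeR adjusted p 0.533). At 5 µM it was at 92.6, 116, 116 and 91.6 CPM, and at 10 µM the 4 lines lay within 78.9, 75.3, 75.4 and 74.1 CPM (log2 fold change -1.46 ± 0.13, edgeR adjusted p 1.91e-08). Sox9 was at 152, 149, 156 and 149.7 CPM with DMSO, 102, 130.03, 137 and 129 CPM at 3 µM, 49.3, 52.6, 60.6 and 54.7 CPM at 5 µM and 22.8, 12.8, 16.4 and 18.8 CPM at 10 µM, and at 3 µM the groups did not overlap though the test was not passed (log2 fold change -0.29 ± 0.14, edgeR adjusted p 0.161).

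Paneth markers fell alongside, from 5052 to 7450 CPM summed with DMSO to 626 to 812 CPM at 3 µM, 248 to 289 CPM at 5 µM and 30.1 to 53.0 CPM at 10 µM, and proliferation markers from 1674 to 1751 CPM to 373 to 481 CPM at 10 µM. Goblet cell markers rose from 4095 to 6019 CPM with DMSO to 6668 to 14525 CPM at 3 µM and were at 228 to 548 CPM at 10 µM. Markers of fetal-like epithelium rose from 171 to 260 CPM with DMSO to 880 to 1783 CPM at 3 µM and 1952 to 2549 CPM at 10 µM. The part of these markers in the falls of the 9 genes was not tested.

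**Figure D5:**
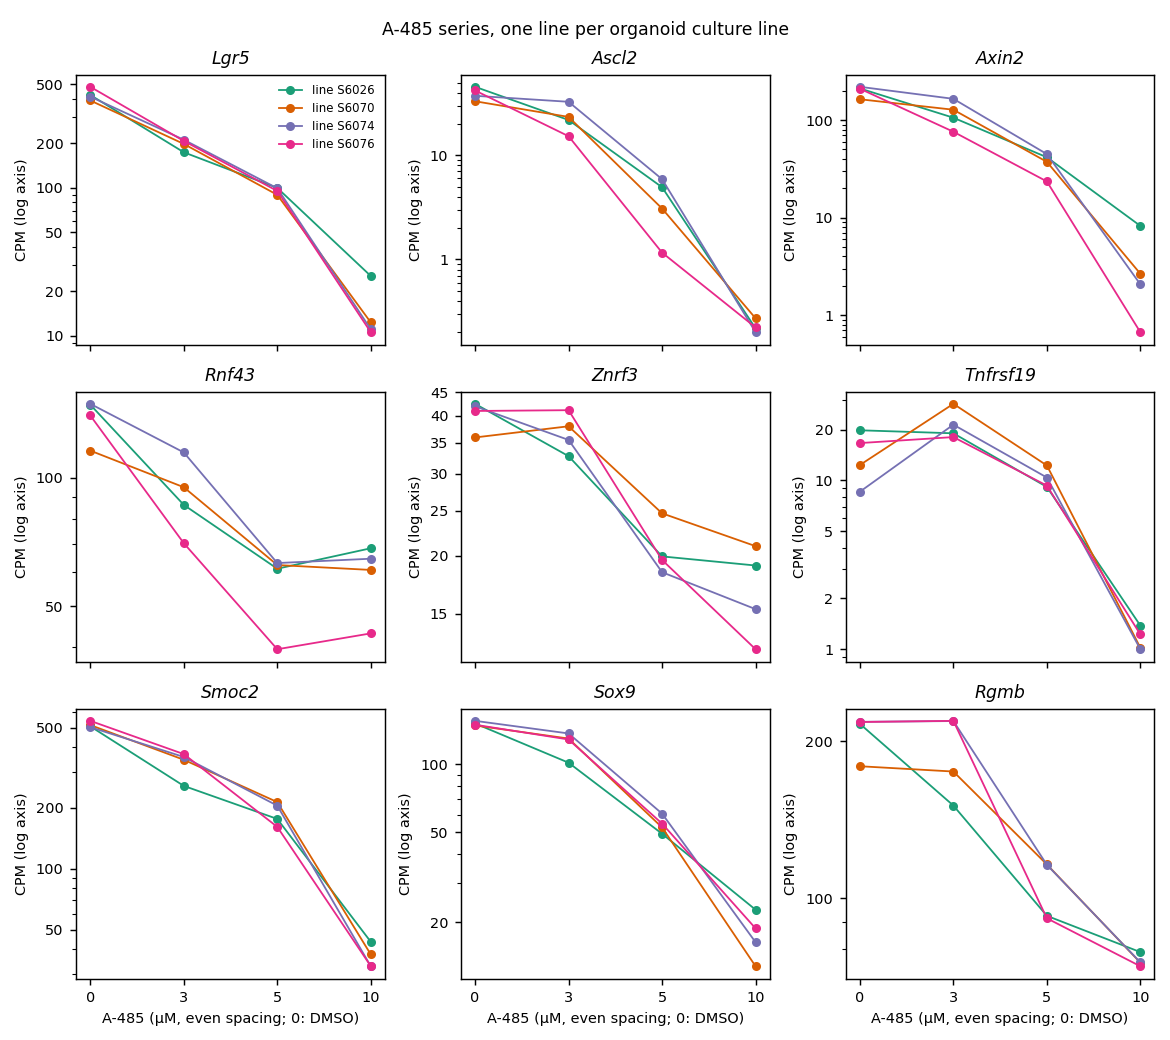
CPM (log axis) of the 9 genes at 0, 3, 5 and 10 µM A-485, doses evenly spaced along the x axis, with 1 connecting line for each of the 4 organoid lines. Ascl2 and Axin2 drop to 0.579% and 1.70% of the DMSO mean at 10 µM, and Rnf43 levels off at 40.9% and 42.8% at 5 and 10 µM.

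Over the 21 groups each gene had its own order of levels. For Lgr5 it ran, in mean CPM and across tables scaled separately, from the A-485 series with DMSO (427) through the CreER-only and flox/+ lines of the second organoid set (336 and 297) and flox/+ spheroids with DMSO and with 4-OHT (273 and 199) to flox/flox spheroids with DMSO (175), flox/flox lines of the second organoid set (166) and the first organoid set with DMSO (147). Heterozygous crypts (59.8 and 46.97) came next, then flox/flox spheroids and first-set organoids with 4-OHT (36.7 and 24.9), homozygous crypts (4.83 and 3.32) and the 4 villus groups (1.24 and below). The groups given 3, 5 and 10 µM A-485 lay among these at 198, 96.1 and 14.8 CPM. Within the 4 tables there are 17 pairs of neighbouring groups per gene, and for Lgr5, Smoc2 and Sox9 9 of the 17 had libraries that did not overlap. Znrf3 had the least separated order of the 9, with 4 of 17 pairs apart, followed by Axin2 and Rnf43 with 5, Rgmb and Tnfrsf19 with 6 and Ascl2 with 7. Such pairs were not counted for other genes, so these counts describe the 9 genes only. In the Lgr5 order of the A-485 table, each of DMSO, 3 µM, the first organoid set's DMSO and 5 µM stood apart from the next lower group. The first set's 4-OHT group, which came after 5 µM, overlapped the 10 µM group. In the table of the second organoid set, flox/flox spheroids with 4-OHT stood apart from their next higher neighbour, the flox/flox organoids, for Lgr5 and Ascl2.

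For Ascl2 the A-485 series with DMSO had the highest mean (39.4 ± 5.43 CPM), followed by heterozygous Rosa26-CreER crypts (28.3 ± 6.15 CPM). Control organoids of the first set (19.98 ± 0.356 CPM) and flox/+ and CreER-only lines of the second (17.97 ± 1.37 and 16.1 ± 3.22 CPM) lay between these crypts and the heterozygous Vil1-CreER crypts (11.8 ± 2.09 CPM), in tables scaled separately. Tnfrsf19 had means of 14.5 and 13.9 CPM in heterozygous Rosa26-CreER and Vil1-CreER crypts, 14.3 CPM in the A-485 series with DMSO and 13.9 CPM in CreER-only lines, but 1.71 CPM in the first organoid set with DMSO. Line S6070 occurs in the first organoid set and in the A-485 series, and with DMSO it had 164 and 389.6 CPM of Lgr5 and 2.24 and 12.3 CPM of Tnfrsf19, respectively. Those libraries belong to separate series with different treatment times, which cannot be told apart. Per kilobase, Smoc2 and Lgr5 led in the A-485 series with DMSO (74.2 ± 2.39 and 41.6 ± 3.82 RPKM), and Rgmb and Rnf43 led at 10 µM (9.90 and 9.03 RPKM).

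The 77 other Wnt pathway genes, in 6 lists, moved in both directions. In Rosa26-CreER crypts 17 of 67 tested were lower and 7 higher (11.6% and 8.63% of all genes tested), and in Vil1-CreER crypts 19 and 10 of 63 (17.7% and 11.6%). In the first organoid set they were 13 and 17 of 59 (17.2% and 18.2%), and in flox/flox against flox/+ lines 20 and 21 of 57 (24.3% and 22.6%). In flox/flox spheroids they were 3 and 14 of 61 (10.0% and 9.01%), and at 10 µM A-485 24 and 23 of 57 (32.6% and 29.4%). In Rosa26-CreER crypts 3 of 7 secreted or feedback inhibitors (median log2 fold change -1.42) and 9 of 14 other crypt targets (-1.04) were lower and none higher, where 11.6% of all genes were called lower and 8.63% higher. Other crypt targets were called both ways elsewhere. In Vil1-CreER crypts Prox1 was lower (log2 fold change -3.53) and Ccnd1 and Cd44 were higher (1.01 and 0.72). In flox/flox spheroids after 4-OHT Slc12a2 was lower (-1.32) and Ccnd1 higher (1.35). Of the destruction complex and signal transduction genes 0 of 13 were lower in Rosa26-CreER crypts and 3 higher, and in flox/flox against flox/+ organoids 0 of 13 were lower and 10 higher, against 24.3% and 22.6% of all genes.

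Single pathway genes with the largest changes included ligands, a secreted inhibitor and Frizzled receptors. Sfrp5, a secreted Wnt inhibitor, fell from 13.5 to 0.221 CPM in Rosa26-CreER crypts (log2 fold change -5.78 ± 0.74, edgeR adjusted p 0.00127). Wnt3, the ligand supplied by Paneth cells, fell from 15.5 to 3.23 CPM there (-2.22 ± 0.40, edgeR adjusted p 0.00559) and from 5.42 to 0.675 CPM in the first organoid set (-3.01 ± 0.31, 0.000736). The receptor gene Fzd8 rose from 2.93 to 9.09 CPM in Rosa26-CreER crypts (1.68 ± 0.18, edgeR adjusted p 0.000611), and Wnt7b rose in the first organoid set (2.69 ± 0.31, 0.00116). At 10 µM A-485 the Myc-responsive target Cdca7 was at 7.54 CPM against 245 CPM with DMSO (-4.99 ± 0.29, edgeR adjusted p 2.13e-10), while Ccnd1, which encodes cyclin D1, rose from 177 to 636 CPM (1.84 ± 0.17, 5.24e-08).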

How the data were processed

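Polyadenylated RNA was sequenced as strand-marked (dUTP) libraries, per the labels' protocols. HISAT2 2.0.5 and the GRCm38/mm10 build are named in the submitters' processing notes, and the counting program and annotation were not given in the sources used here. The authors deposited 4 tables of raw read counts per gene. All 92 libraries used here have a column, and samples were grouped by their genotype, treatment, tissue and time labels. Animals and culture lines were the replicates.

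Counts were tested in edgeR 4.0.16 (R 4.3.3) with the robust quasi-likelihood F-test, TMM scaling and filterByExpr by group. Tissue comparisons, the first organoid set and spheroids against organoids were fitted on the groups compared alone. The second organoid set, the spheroids and the A-485 series were each fitted with all groups of the set. Villus minus crypt differences were fitted on the crypt and villus groups of a mouse line. Benjamini-Hochberg adjustment ran over all genes tested, with a threshold of 0.05. Levels are CPM after TMM over all libraries of a table, and RPKM values use the deposited gene lengths. The precision of a value is limited by its reads, so levels under 0.1 CPM rest on few reads. DESeq2 1.42.0, its size factors, no filter, only the compared groups, a replicate block and leaving out each library were tried as alternatives, and a Ddx3y covariate and leaving out line S9020-C were chosen after seeing the data. The test script was checked on simulated counts.

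Same-line pairs deviated together in the first organoid set (r 0.318 to 0.501) and in spheroids (0.385 to 0.783 in flox/flox and 0.626 to 0.857 in flox/+ lines), and A-485 libraries of a line share the line by their labels. The named genes are the 9 members and, of 77 other pathway genes, up to 3 called in each direction with the largest changes and a mean log2 CPM of at least 1, of which the text gives a selection. The members and gene lists were chosen with earlier results of these data known.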

Additional observations from a re-analysis of the deposited data

Results flagged for a closer look

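Of the 162 member and group pairs with 4 to 10 libraries, 14 had a library whose distance from the nearest other exceeded Dixon's 95% limit, and chance flags about 5% of such groups. In the A-485 series, Lgr5 at 10 µM was 25.4 CPM in replicate 1 (group median 11.7), Rnf43 at 5 µM was 39.6 CPM in replicate 4 (median 61.8), and Rgmb with DMSO was 179 CPM in replicate 2 (median 217). Replicate 1 of that series is line S6026, labelled Eif4g2(+/+), while the other lines are labelled Eif4g2(flox/flox). In Rosa26-CreER heterozygous villi, replicate 3 had the highest Lgr5 at 1.73 CPM (median 0.390) and the highest Ascl2 at 0.740 CPM (median 0.107), and 24.5% of its counts were mitochondrial. In Vil1-CreER homozygous villi, replicate 4 had the highest Axin2 at 90.2 CPM (median 59.6) and the highest Rnf43 at 35.2 CPM (median 27.8). Among spheroids given 4-OHT, flox/flox replicate 3 (line S9484-A) had 121 CPM of Axin2 (median 47.2) and 3.99 CPM of Tnfrsf19 (median 0.739). In the flox/+ group, replicate 5 (line S9020-C) had 255 CPM of Axin2 (median 54.3), 218 CPM of Rnf43 (median 172) and 242 CPM of Rgmb (median 26.5). In the second organoid set, flox/+ replicate 4 had the highest Smoc2 at 448 CPM (median 402) and the lowest Sox9 at 75.9 CPM (median 95.1).

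The effect of homozygous deletion differed between villi and crypts, by the tested difference (villi minus crypts, log2 scale, edgeR). In Rosa26-CreER mice the difference was 1.41 ± 0.36 for Axin2, 2.83 ± 0.74 for Lgr5, 2.23 ± 0.23 for Rgmb, 2.17 ± 0.45 for Smoc2 and 1.44 ± 0.40 for Znrf3. In Vil1-CreER mice it was 2.20 ± 0.66 for Ascl2, 2.12 ± 0.22 for Rgmb, 0.54 ± 0.16 for Rnf43, 2.54 ± 0.68 for Smoc2, 4.14 ± 1.09 for Tnfrsf19 and 1.31 ± 0.34 for Znrf3. Villus levels of Ascl2, Tnfrsf19 and Lgr5 were near 0 in both genotypes, so the villus side of these differences rests on few reads.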

How the results depend on the processing

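Under DESeq2's size factors 23 of 23 counts of called members were within 1.5 times the reported ones, under DESeq2's Wald test 22 of 23, without a filter 22 of 23, in fits of only the compared groups 10 of 12 and with a replicate block 18 of 22. In spheroids the 2 members called after 4-OHT in flox/flox lines became 1 without the filter, 1 when only those groups were fitted and 4 with the line as a replicate block. The 2 called between genotypes under 4-OHT became 0 with replicate numbers as a block, which pair no lines. The genotype difference of the 4-OHT effect gave 0 members, 1 with DESeq2's Wald test and 4 with the line block. At 3 µM A-485 the 3 members became 5 in a fit of only those groups and 5 with the line block. The 2 members called between spheroids and organoids became 6 without line S9020-C. The replicate block also ended the calls of Lgr5 in Vil1-CreER villi (edgeR adjusted p 0.0693) and of Znrf3 between flox/flox and CreER-only lines (0.058), where numbers pair nothing. In Rosa26-CreER villi Znrf3 was called by DESeq2 (adjusted p 0.0279), and between flox/flox and CreER-only organoids Sox9 was not called without the filter (edgeR adjusted p 0.0564). The shares of all genes called that stand in the text belong to the reported fits, so the counts from these alternatives cannot be set against them. The cause of these changes was not tested.

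Leaving out 1 library at a time left 318 counts within 1.5 times the reported ones and moved 13 past it. In Vil1-CreER villi the count ran from 1 (without heterozygous replicate 4) to 4, in flox/flox spheroids from 1 (without 4-OHT replicate 1, 2, 4, 5 or 6 or DMSO replicate 1 or 3) to 3, and between spheroid genotypes under 4-OHT from 1 (without flox/+ replicate 5) to 2. Between spheroids and organoids it ran from 2 to 6 (without flox/+ replicate 5), for the villus minus crypt difference from 3 (without crypt homozygous replicate 1) to 6 in Rosa26-CreER and from 3 (without crypt homozygous replicate 1) to 7 in Vil1-CreER mice, and for the spheroid difference from 0 to 1 (without flox/flox 4-OHT replicate 4).

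The sign of a log2 fold change turned only among values that were not called. Sox9 in Vil1-CreER villi was 0.0044 without the filter and 0.11 with the replicate block. Rnf43 in flox/flox spheroids was -0.019 by DESeq2's test and -0.019 with its size factors. In flox/+ spheroids Axin2 was -0.0032 with the line block and -0.22 without S9020-C, and Sox9 was 0.00021 with DESeq2's size factors and 0.0058 when only the groups compared were fitted. Without S9020-C, Axin2 and Znrf3 between genotypes under 4-OHT were 0.17 and 0.25, and under DMSO Lgr5, Axin2, Smoc2 and Rgmb were 0.29, 0.27, 0.44 and 0.0082. The Rgmb difference of the 4-OHT effect was 0.18 with the line block.

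With 1 library left out, values that changed sign ran from -0.72 to 0.24 for Lgr5 in Rosa26-CreER villi, -0.082 to 0.025 for Axin2 in Vil1-CreER crypts, -0.22 to 0.29 for Sox9 in Vil1-CreER villi, -0.17 to 0.17 for Sox9 in the first organoid set and -0.074 to 0.025 for Smoc2 between flox/+ and CreER-only lines. In flox/flox spheroids they ran from -0.72 to 0.24 for Axin2, -0.12 to 0.15 for Rnf43 and -0.079 to 0.38 for Sox9. In flox/+ spheroids the ranges were -1.39 to 0.47 for Lgr5, -0.070 to 0.32 for Ascl2, -0.84 to 0.66 for Axin2, -0.023 to 0.13 for Rnf43, -0.37 to 0.33 for Znrf3, -1.34 to 0.48 for Tnfrsf19, -1.59 to 0.58 for Smoc2, -0.26 to 0.18 for Sox9 and -1.50 to 0.55 for Rgmb. Between genotypes they were -1.11 to 0.17 for Axin2 and -0.29 to 0.25 for Znrf3 under 4-OHT, and under DMSO -1.07 to 0.29 for Lgr5, -0.92 to 0.27 for Axin2, -1.13 to 0.44 for Smoc2 and -1.62 to 0.0087 for Rgmb. The range was -0.069 to 0.19 for Rnf43 from 5 to 10 µM A-485 and -0.081 to 0.47 for Rnf43 in the Rosa26-CreER villus minus crypt difference. For the spheroid difference it was -0.99 to 0.51 for Axin2, -0.19 to 0.088 for Rnf43, -0.077 to 0.48 for Sox9 and -1.25 to 0.81 for Rgmb.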

Other observations

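Which other genes resemble the members in level over the 21 groups was not determined here.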
